A study of Homo sapiens with 4 samples.

Results

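The genes described here are 50 genes of G2 phase and mitosis, chosen by gene name for their known roles, and all 50 have a row among the 25680 gene names of the count tables. The RNA-seq samples are THP-1 cells, a human cell line grown from an acute monocytic leukaemia. The cells carried either a lentiviral shRNA with a scrambled sequence (Scrambled, 2 libraries) or a lentiviral shRNA against PIWIL4, a PIWI-family Argonaute gene (shPIWIL4, 2 libraries). Cells of both groups were transduced, sorted by flow cytometry 48 hours later and lysed for total RNA. The groups follow the sample titles, since the treatment label of the shPIWIL4 libraries contains the word scrambled too. A single shRNA sequence is named for each group, untransduced cells are not part of the comparison, and the titles tag the libraries of each group as exp. rep1 and rep2 without saying whether they came from separate cultures, so p-values measure only the spread between these libraries, which may be technical. The question addressed by the design is how expression differs when PIWIL4 is knocked down.

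Total counts ranged from 31458079 to 53657246 per library. PIWIL4 was at 38.5 and 37.2 CPM (counts scaled to a common library size) in Scrambled libraries 1 and 2 and at 17.8 and 17.4 CPM in shPIWIL4 libraries 1 and 2, a log2 fold change of -1.10 (SE 0.09). All 13 monocytic and myeloid markers were detected in every library, and together they held 0.149% and 0.151% of Scrambled counts and 0.324% and 0.312% of shPIWIL4 counts. Most of that gap was the lysozyme gene LYZ, with 4558 and 7996 against 91354 and 94449 counts, and 4 of the 13 were called higher and 3 lower. The 7 T and NK cell markers summed to 944 and 1750 against 1378 and 1286 counts. Nearly all of these were NKG7, with 908 and 1691 against 1352 and 1250 counts, followed by CD8A with 33 and 56 against 26 and 35 counts, which was called lower, while CD3E, CD2 and KLRD1 were at 0 in all 4 libraries. The 5 erythroid markers summed to between 3 and 9 counts. The 4 B cell markers held 0.00114% of counts in both Scrambled libraries and 0.000481% and 0.000496% in the shPIWIL4 libraries, with MS4A1 at 0 or 1 count. All 3 of them that were tested were called lower, as were 29.1% of all genes tested. The 7 epithelial and fibroblast markers summed to 256 and 445 counts against 124 and 145, with KRT19 and COL1A2 at 0. All 4 of these that were tested were called at least 2-fold lower, as were 11.3% of all genes tested. The part of these markers in the results below was not tested.

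Entry into mitosis is driven by the kinase CDK1 bound to cyclins A and B. Aurora and Polo kinases then build the spindle, the kinetochore ties chromosomes to it, and the spindle checkpoint holds back the anaphase-promoting complex until every chromosome is attached. Many of these genes are transcribed late in the cell cycle through a promoter element called the cell cycle genes homology region (CHR), which is read by the MuvB complex. MuvB joins the DREAM repressor in resting cells and B-MYB and FOXM1 in cycling cells, and CCAAT boxes upstream bind the factor NF-Y.

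Promoters of 6 members are shown. ANLN and HMMR went opposite ways, CKS2 was called higher and CKS1B was not called, and CCNB1 and CCNB2 were both called higher. RefSeq windows of 250 bases before to 50 after an annotated start (build GRCh38.p14) matched 41 of the 50 members by symbol. Both strands were searched for TTTGAA (CHR), CCAAT (NF-Y) and TTCCCGC (an E2F site), and matches may overlap. The 200 bases before the start are printed 5′ to 3′ on the gene's strand, with every match to one of the 3 motifs, in either orientation, in capitals. ANLN had the largest rise and HMMR the only fall, CKS1B and CKS2 are paralogs, and CCNB1 and CCNB2 are the B-type cyclins.
ANLN, chr7:36389662-36389861 (+ strand): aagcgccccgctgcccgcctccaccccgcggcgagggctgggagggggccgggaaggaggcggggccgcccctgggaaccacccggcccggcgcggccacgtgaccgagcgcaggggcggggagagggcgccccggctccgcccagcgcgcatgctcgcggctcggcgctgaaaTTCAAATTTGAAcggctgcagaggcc
HMMR, chr5:163460432-163460631 (+ strand): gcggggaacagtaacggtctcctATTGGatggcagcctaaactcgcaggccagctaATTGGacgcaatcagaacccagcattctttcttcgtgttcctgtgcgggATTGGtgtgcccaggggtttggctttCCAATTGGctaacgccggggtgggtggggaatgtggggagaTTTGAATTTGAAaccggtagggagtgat
CKS1B, chr1:154974481-154974680 (+ strand): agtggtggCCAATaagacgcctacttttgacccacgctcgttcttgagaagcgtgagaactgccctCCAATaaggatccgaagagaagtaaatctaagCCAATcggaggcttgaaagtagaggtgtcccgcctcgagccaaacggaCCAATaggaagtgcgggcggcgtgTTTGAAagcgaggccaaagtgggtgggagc
CKS2, chr9:89310995-89311194 (+ strand): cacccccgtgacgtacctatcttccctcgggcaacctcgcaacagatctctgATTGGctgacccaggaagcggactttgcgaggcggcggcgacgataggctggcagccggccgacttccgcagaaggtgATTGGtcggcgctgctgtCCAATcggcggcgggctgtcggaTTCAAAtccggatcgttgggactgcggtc
CCNB1, chr5:69166950-69167149 (+ strand): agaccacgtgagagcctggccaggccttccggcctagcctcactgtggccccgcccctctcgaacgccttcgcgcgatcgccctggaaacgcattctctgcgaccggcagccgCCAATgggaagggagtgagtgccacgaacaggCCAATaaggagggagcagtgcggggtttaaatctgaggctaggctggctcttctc
CCNB2, chr15:59104946-59105145 (+ strand): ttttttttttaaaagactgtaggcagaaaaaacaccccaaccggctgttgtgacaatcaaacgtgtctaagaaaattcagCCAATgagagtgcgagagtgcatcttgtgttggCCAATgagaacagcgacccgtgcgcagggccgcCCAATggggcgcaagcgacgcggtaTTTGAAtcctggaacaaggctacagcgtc

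The CHR letters were found for 32 of the 41 members with a window (78.0%), against 14.2% of all genes tested that have a window and 18.2% of all 27305 genes with one. CCAAT was found for 34 of 41 members (82.9%) against 42.4% of genes tested, and CHR together with CCAAT for 28 (68.3%) against 7.52%. The E2F letters were found for 4 members (9.76%) against 12.2% of genes tested. In a list of 42 genes of DNA replication and the G1/S step, of which 37 have a window, the order was the other way round, with E2F letters in 16 (43.2%) and CHR letters in 2 (5.41%). The CHR matches of the members gathered close to the start. Of 48 matches, 26 began within 100 bases upstream, and 13 of them between 21 and 30 bases upstream. CCAAT matches lay farther out, with a median of 79 bases upstream.

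**Figure D1:**
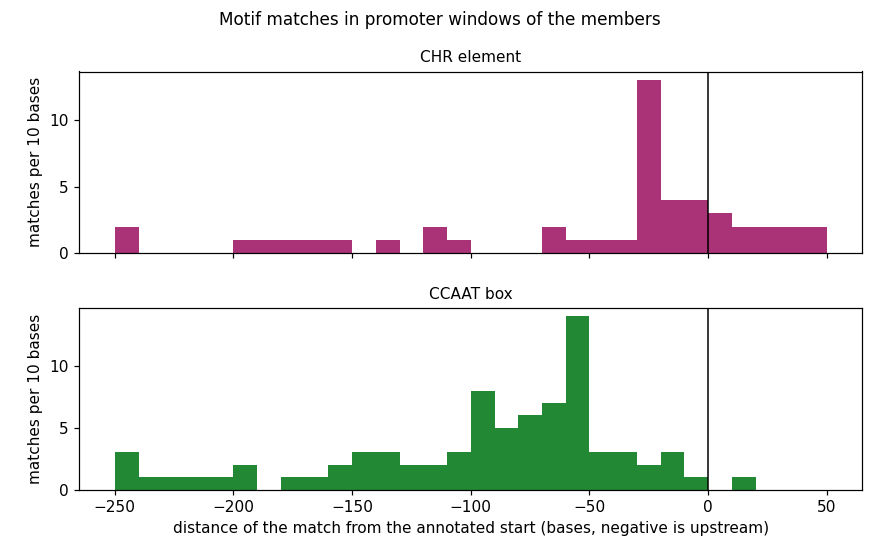
Distance in bases from the annotated start to the first base of each CHR match (TTTGAA, upper panel, 48 matches) and CCAAT match (lower panel, 79 matches) in the RefSeq windows of 41 members, in bins of 10 bases; genes with several annotated starts contribute a window for each. The tallest CHR bin holds 13 matches and lies between 21 and 30 bases upstream.

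Most of these mitotic genes were higher in the shPIWIL4 libraries, by small amounts. Of the 49 members that passed the filter on low counts, 32 rose (65.3%) and 1 fell at an adjusted p under 0.05 in edgeR's quasi-likelihood test. Of all 16108 genes tested, 57.7% were called, 28.7% higher and 29.1% lower. The median log2 fold change was 0.32, which compares with 0.00 over all genes tested, and 1 member, ANLN, rose by at least 2-fold, as did 4.79% of all genes. Both shPIWIL4 libraries lay above both Scrambled libraries for 39 of 49 members, against 39.1% of all genes, and below both for 2, against 39.5%. KIFC1, a minus-end directed kinesin gene, had 2 and 3 counts in the Scrambled and 0 and 4 in the shPIWIL4 libraries, and was not tested. Every other member had at least 383 counts in each library. Reads from a region that a genome build holds in several copies can be left uncounted, and whether that applies to KIFC1 was not tested, so its counts are not read as absence of the transcript. In such bulk RNA, more cells in G2 or mitosis and more RNA of these genes per cell cannot be told apart. Scrambled library 2 bore on the count, since 20 members were called higher and 0 lower without it, where 21.9% of all genes were then called higher. With upper-quartile scaling, which moved the median of all genes to -0.12, 23 members were higher and 2 lower with a median of 0.20. In that fit 21.4% of all genes were called higher and 5717 of 16108 lower.

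**Figure D2:**
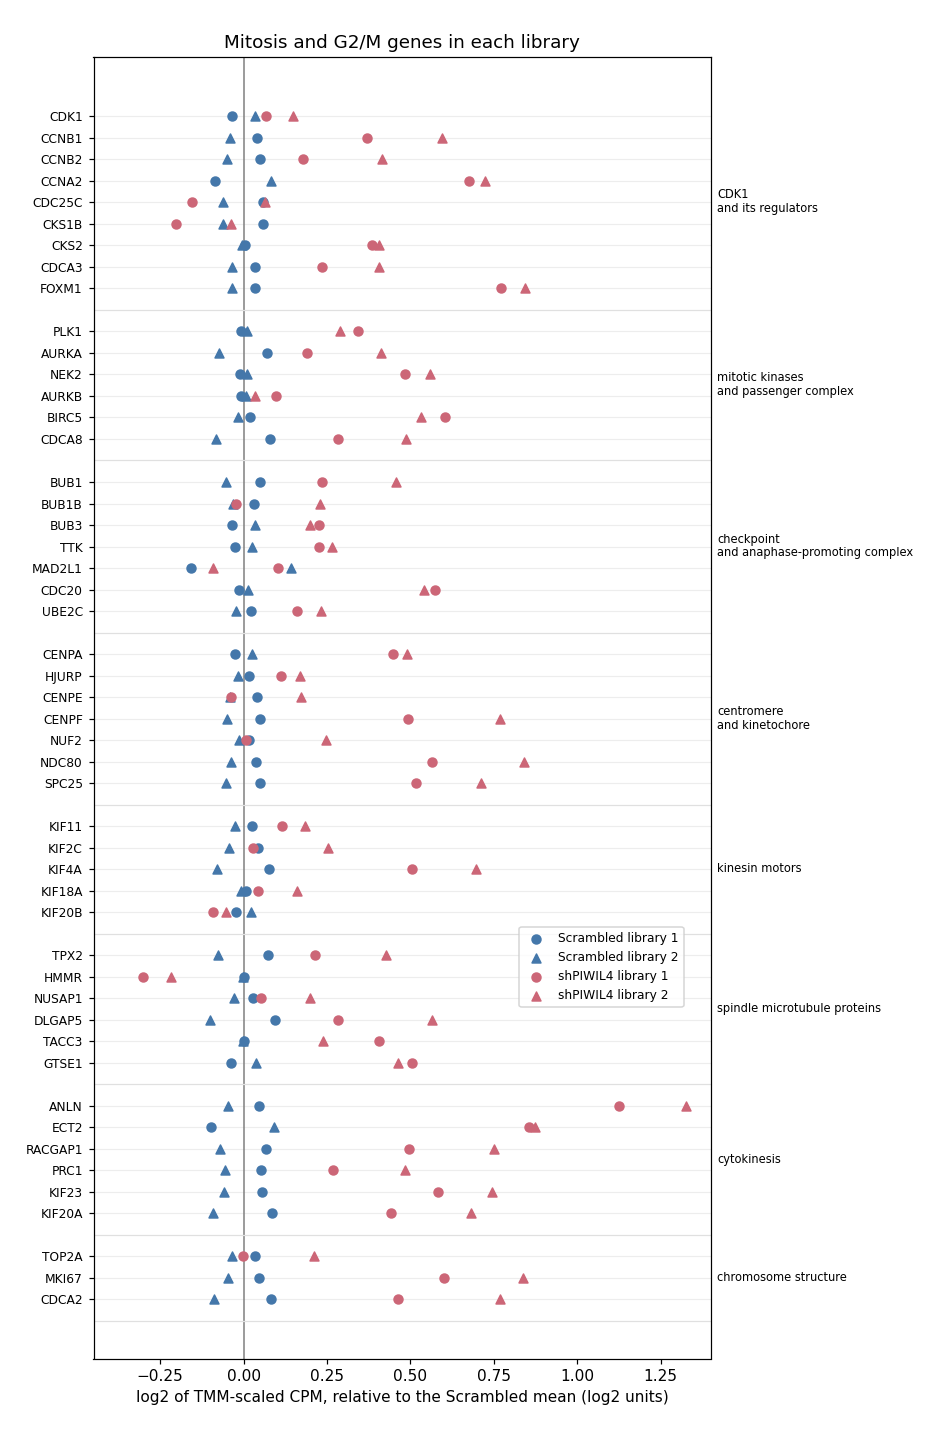
TMM-scaled CPM of the 49 tested members in each library, as the log2 difference from the mean of the Scrambled libraries, with members ordered by role (circles, library 1; triangles, library 2; blue, Scrambled; red, shPIWIL4). Both red points lie right of both blue points for 39 members, and left of them for HMMR and KIF20B.

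CDK1 itself did not pass the test while several of its partners did. In the group of CDK1 and its regulators 6 of 9 members rose and 0 fell, with a median log2 fold change of 0.32. In what follows the values of Scrambled libraries 1 and 2 come first and those of shPIWIL4 libraries 1 and 2 second, all in TMM-scaled CPM. CDK1 was at 70.4 and 73.9 against 75.6 and 79.9 CPM, with a log2 fold change of 0.11 (SE 0.08, edgeR adjusted p = 0.29). CCNA2, which encodes the cyclin of S phase and early mitosis, rose from 69.7 and 78.2 to 118 and 122 CPM. Its log2 fold change was 0.70 (SE 0.09, edgeR adjusted p = 0.00013), and the groups were well apart. The B-type cyclins rose less, CCNB1 from 102 and 96.4 to 128 and 149.9 CPM and CCNB2 from 80.0 and 74.7 to 87.6 and 103 CPM. In both genes shPIWIL4 library 2 was the highest of the 4. CCNB2 was past the threshold in 7 of 12 alternative fits and CCNB1 in 12 of 12.

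FOXM1, a transcription factor of many late cell cycle genes, came after only ANLN and ECT2 in the size of its rise. It was at 123 and 118 CPM in the Scrambled and at 206 and 216 CPM in the shPIWIL4 libraries, 1.75-fold higher (log2 fold change 0.81, SE 0.08, edgeR adjusted p = 3.9e-05). Of the small CDK-binding proteins that dock phosphorylated targets, CKS2 rose from 55.3 and 55.0 to 72.1 and 73.0 CPM, with almost no spread within a group. Its paralog CKS1B was at 90.0 and 82.8 against 75.2 and 84.3 CPM, with overlapping groups and a log2 fold change of -0.12 (SE 0.09). It was called lower with upper-quartile scaling and without shPIWIL4 library 2, and processed pseudogenes of CKS1B can share its reads. The printed promoters of this pair both hold CCAAT boxes and 1 CHR match at nearly the same distance from the start, 29 bases in CKS2 and 30 in CKS1B. CDCA3, which promotes the loss of the CDK1 inhibitor WEE1, rose from 27.8 and 26.4 to 31.9 and 35.9 CPM. CDC25C, a phosphatase that activates CDK1, was at 15.3 and 14.1 against 13.2 and 15.4 CPM, so that the groups overlapped.

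In the group of mitotic kinases and the passenger complex, AURKB was the exception to a rise. Kinase genes placed elsewhere were mixed, with the members BUB1 and TTK called higher and CDK1 not called. In the list for mitotic entry described below, CHEK1, WEE1 and PKMYT1 were called higher, MASTL and PLK3 lower, and CHEK2 and PLK2 were not called. None of these list genes is a member, and all but MASTL were named here after their values were seen. Of 6 genes for mitotic kinases and the chromosomal passenger complex, 5 rose and 0 fell, with a median log2 fold change of 0.35. PLK1, the Polo kinase, rose from 68.5 and 69.3 to 87.4 and 84.1 CPM, and all 4 libraries kept close to their group. AURKA, the centrosomal Aurora kinase, rose from 108 and 97.8 to 118 and 137 CPM, with a wider spread within each group. NEK2, a kinase that splits centrosomes, rose from 22.8 and 23.1 to 32.1 and 33.8 CPM (log2 fold change 0.52). The passenger complex, which corrects faulty spindle attachments, was uneven. Its subunit genes BIRC5, which encodes survivin, and CDCA8, which encodes borealin, rose from 74.2 and 72.3 to 111 and 106 CPM and from 51.6 and 46.1 to 59.4 and 68.4 CPM. Its kinase gene AURKB was at 25.2 and 25.4 against 27.1 and 25.9 CPM, a log2 fold change of 0.07 (SE 0.09, edgeR adjusted p = 0.56).

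Spindle checkpoint genes were split. In the group for the checkpoint and its target, the anaphase-promoting complex, 4 of the 7 genes were called higher and 0 lower, and the median was 0.21. CDC20, the activator of the anaphase-promoting complex, had the largest rise of the group, from 139.8 and 142 to 209.9 and 205 CPM (1.47-fold, log2 fold change 0.56, SE 0.08, edgeR adjusted p = 0.00028). Its pairs of libraries were tight, and BUB1 came next in this group with a log2 fold change of 0.35. The checkpoint kinase genes BUB1 and TTK rose from 118 and 110.05 to 134 and 157 CPM and from 54.9 and 56.8 to 65.4 and 67.1 CPM. BUB3, which recruits BUB1 to kinetochores, rose from 125 and 131 to 149 and 147 CPM, and its adjusted p of 0.044 in edgeR's test was the closest to the threshold among the called members. BUB1B, which encodes the inhibitor BUBR1, was at 99.7 and 95.3 against 95.9 and 114 CPM. MAD2L1, which encodes the other inhibitor MAD2, was at 41.7 and 51.3 against 49.9 and 43.7 CPM, with a log2 fold change of 0.01. Both overlapped between the groups. UBE2C, the ubiquitin carrier of the complex, was at 56.4 and 54.6 against 62.0 and 65.2 CPM, just outside the threshold (edgeR adjusted p = 0.066).

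At the centromere and kinetochore 4 of the 7 genes were called higher and 0 lower (median log2 fold change 0.47). CENPA, the histone variant that marks centromeres, rose from 16.2 and 16.8 to 22.5 and 23.1 CPM. HJURP, its loading factor, was at 75.4 and 73.7 against 80.6 and 83.7 CPM, with a log2 fold change of 0.14. The microtubule-binding NDC80 complex did not move evenly. NDC80 rose from 35.95 and 34.2 to 51.8 and 62.8 CPM (1.64-fold) and SPC25 from 17.6 and 16.4 to 24.3 and 27.9 CPM (1.54-fold). NUF2 was at 65.7 and 64.4 against 65.4 and 77.1 CPM, so that only shPIWIL4 library 2 stood above the Scrambled libraries. SPC24, the remaining subunit, was named to complete the complex after its values were seen, and had a log2 fold change of 0.06 (SE 0.14). CENPF, a large protein of the outer kinetochore, rose from 208 and 194 to 282 and 342 CPM, with shPIWIL4 library 2 the highest. CENPE, the kinesin of the kinetochore, was at 55.4 and 52.4 against 52.5 and 60.7 CPM.

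Motor proteins not placed in another group had the fewest calls, 1 of 5 tested members higher and 0 lower, with a median of 0.15. This depends on the grouping, since the kinesin genes KIF23 and KIF20A, both called higher, were counted under cytokinesis. CENPE, not called, was counted under the kinetochore. KIF4A, a chromosome-bound kinesin, rose from 45.2 and 40.5 to 60.7 and 69.4 CPM (log2 fold change 0.61, SE 0.10). Its near-identical retrocopy KIF4B can share reads with it, so the value is uncertain. KIF11, the motor that separates spindle poles, KIF2C, which depolymerises microtubules, and KIF18A, which limits chromosome oscillation, had log2 fold changes of 0.15, 0.15 and 0.10, none past the threshold. KIF20B was at 57.9 and 59.8 against 55.2 and 56.8 CPM, below in both shPIWIL4 libraries but by little (log2 fold change -0.07). Among 6 other proteins of spindle microtubules 4 rose and 1 fell. TPX2, the activator of Aurora A, rose from 152 and 137 to 168 and 195 CPM, and DLGAP5, a microtubule stabiliser, from 37.9 and 33.1 to 43.2 and 52.5 CPM. Library 2 was the higher of the shPIWIL4 libraries in both. TACC3, which bundles microtubules with clathrin, rose from 111 and 110.5 to 146 and 130.2 CPM, and GTSE1, a microtubule plus-end protein, from 30.2 and 31.8 to 44.0 and 42.7 CPM. In these genes library 1 was the higher. NUSAP1, which crosslinks spindle microtubules, was at 165 and 158 against 168 and 185 CPM (log2 fold change 0.13).

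HMMR, which encodes a hyaluronan receptor that also acts at spindle poles, was the only member that fell. It was at 58.8 and 58.6 CPM in the Scrambled and at 47.7 and 50.5 CPM in the shPIWIL4 libraries. Both shPIWIL4 libraries were below both Scrambled libraries, 1.196-fold lower (log2 fold change -0.26, SE 0.08, edgeR adjusted p = 0.024). The call held in 8 of 12 alternative fits, with adjusted p from 0.00023 to 0.2, and was lost without either Scrambled library, with DESeq2 (adjusted p = 0.061) and with the replicate number as a block (edgeR adjusted p = 0.11). As printed above, its promoter carries 2 CHR matches end to end near the start, as does that of ANLN. The matches have the same orientation in HMMR and opposite orientations in ANLN. The printed stretch of HMMR also holds 5 CCAAT matches, and that of ANLN 0. Of the members called higher 24 of 32 had a window, and of those not called 15 of 16. Over the members with a window and a test, 18 of 31 with the CHR letters were higher (58.1%, median log2 fold change 0.32), and 6 of 9 without them (66.7%, median 0.35). With the CCAAT letters 21 of 33 were higher (63.6%, median 0.38), and 3 of 7 without them (42.9%, median 0.15). Among all genes tested the shares called higher were 30.7% with CHR and 31.2% without, and 32.4% with CCAAT and 30.2% without. Only exact letters were searched, so members without a match may still carry a variant of the element. No difference between members with and without a motif was tested.

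Cytokinesis genes, as grouped here, were the group in which every member rose, 6 of 6, with a median log2 fold change of 0.65. KIF14, a midbody kinesin gene that is not a member, fell and is described below. ANLN, the anillin scaffold of the contractile ring, had the largest rise of all 49 members, from 149 and 139.6 to 315 and 362 CPM. The difference was 2.34-fold (log2 fold change 1.23, SE 0.10, edgeR adjusted p = 8.8e-06), far above the spread within either group. ECT2, which activates RhoA at the division plane, rose from 37.9 and 43.2 to 73.4 and 74.3 CPM (log2 fold change 0.86, SE 0.09, edgeR adjusted p = 5.2e-05). The centralspindlin complex, which recruits ECT2, rose in both subunits. KIF23 went from 63.8 and 58.9 to 91.9 and 103 CPM and RACGAP1 from 93.6 and 85.0 to 126 and 150.1 CPM, with log2 fold changes of 0.67 and 0.63. PRC1, which bundles the midzone microtubules, rose from 191 and 177 to 222 and 258 CPM, and KIF20A, a midzone kinesin, from 53.7 and 47.5 to 68.7 and 81.0 CPM. In 5 of these 6 genes Scrambled library 1 was above Scrambled library 2, and in all 6 shPIWIL4 library 2 was above shPIWIL4 library 1.

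Among the genes for chromosome structure, MKI67, the Ki-67 protein that coats mitotic chromosomes and is used as a proliferation marker, rose from 414 and 389 to 609 and 718 CPM (1.65-fold, log2 fold change 0.72, SE 0.10, edgeR adjusted p = 0.0003). CDCA2, a phosphatase anchor on anaphase chromatin, rose from 22.6 and 20.1 to 29.4 and 36.4 CPM. TOP2A, the topoisomerase that untangles sister chromatids and like Ki-67 a common proliferation marker, was at 462 and 439.9 against 450.2 and 522 CPM. Its groups overlapped, and its log2 fold change of 0.11 (SE 0.10) was not past the threshold.

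Levels between genes can be compared only per length, in the deposited TPM values (transcript abundance scaled by gene length and library size). The members summed to 2906 and 2903 TPM in the Scrambled and to 3751 and 3931 TPM in the shPIWIL4 libraries. Their share of all counts was 0.447% and 0.435% against 0.550% and 0.592%, a ratio of the means of 1.29. An exact test of 2 against 2 libraries cannot reach 0.05. The groups did not overlap, and the gap between them was wider than that within either. In the Scrambled libraries CKS1B was the member with the highest level, at 192 and 182 TPM, next to CKS2 at 178 and 182 TPM, and these overlapped. In the shPIWIL4 libraries CDC20 came first, at 264 and 248 TPM, from 165 and 173 TPM in the Scrambled libraries. CKS2 followed at 247 and 242 TPM, while CKS1B was at rank 3, with 171 and 185 TPM. ANLN moved from rank 21 to rank 7 of 49, at 138 and 153 TPM. KIF18A was the lowest in both groups, at 6.86 and 6.9995 against 7.497 and 7.85 TPM.

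**Figure D3:**
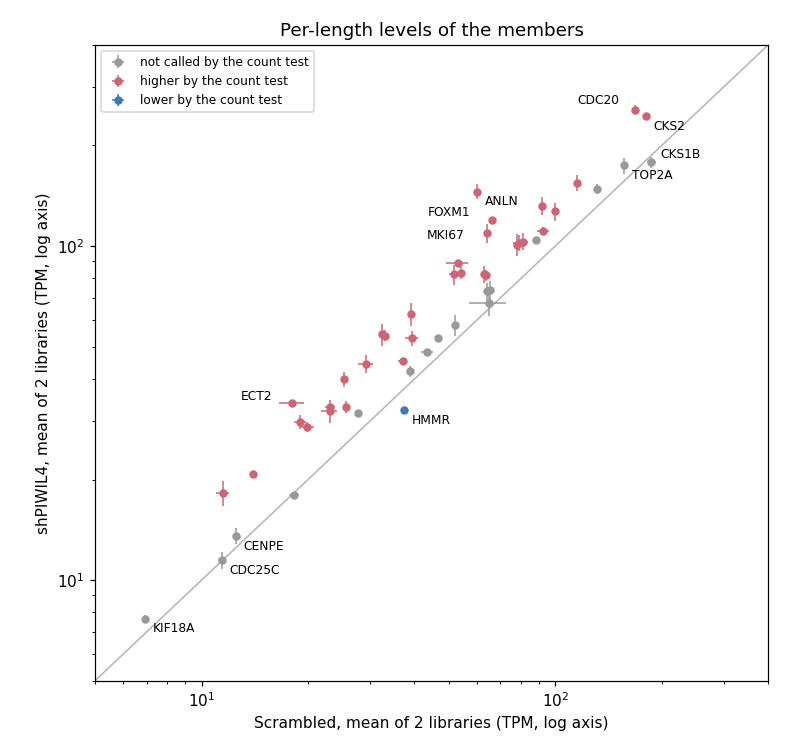
Mean per-length level of each of the 49 tested members in the Scrambled (x axis) and shPIWIL4 libraries (y axis), in deposited TPM on log axes, with bars from the lower to the higher library; the line marks equal levels and colours show the call of the count test. ANLN, at 138 and 153 TPM in shPIWIL4, lies farthest above the line.

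The libraries of a group also differed from each other in these genes. In shPIWIL4, library 1 was above library 2 for only 8 of 49 members (16.3%), against 43.6% of all genes tested, with a median log2 difference of -0.16 against -0.04 over all genes. In Scrambled, library 1 was above library 2 for 36 members (73.5%), against 8054 of all 16108 genes, with a median difference of 0.07. As a result 38 of 49 members were highest in shPIWIL4 library 2, and 33 were lowest in Scrambled library 2. The median difference between the groups, 0.32, was larger than either of these. Without shPIWIL4 library 1 it was 0.43, and without shPIWIL4 library 2 it was 0.27. Under all 12 alternative fits 20 members were called, among them ANLN, FOXM1, ECT2, CCNA2, MKI67, NDC80, CDC20 and BIRC5. None of the 33 called members changed sign in any of these fits.

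The wider mitotic machinery was read from lists of genes outside the 50, to be set beside the 28.7% of all genes called higher and 29.1% called lower. Of 32 other kinetochore genes 20 were higher (62.5%) and 2 lower, and the median log2 fold change was 0.40. CENPN, which reads CENPA nucleosomes, rose from 38.2 and 36.7 to 75.4 and 83.9 CPM, a log2 fold change of 1.09 (SE 0.09). SKA2 and SKA1, of the complex that holds kinetochores to shrinking microtubules, rose by 0.98 and 0.82 on the log2 scale, and ZWILCH, of the checkpoint's RZZ complex, by 0.79. Going the other way, CENPQ, a subunit of the inner kinetochore, fell by 0.31. Cohesin and condensin genes were higher in 11 of 25 and lower in 2, with a median of 0.24. ESCO2, a cohesin acetyltransferase, rose from 12.97 and 13.98 to 28.3 and 28.3 CPM, CDCA5, which encodes sororin, by 0.63, SMC2 by 0.60 and STAG1 by 0.51. The cohesin subunit gene RAD21 fell from 212 and 206 to 157 and 166 CPM and SGOL2, a protector of centromeric cohesin, fell by 0.40.

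Other genes of the anaphase-promoting complex and its inhibitors were higher in 7 of 18 (38.9%) and lower in 0, with a median of 0.06 and 8 of the 18 below zero. ANAPC7, ANAPC13, CDC23 and ANAPC5, all subunits of the complex, rose by 0.61, 0.60, 0.57 and 0.54 on the log2 scale. Centrosome and spindle assembly genes were higher in 12 of 35 (34.3%), a share near that of all genes, and lower in 4 (11.4%), with a median of 0.14. TUBGCP5 and TUBG1, of the gamma-tubulin ring complex, rose by 0.96 and 0.72, HAUS8, of the augmin complex, by 0.86 and the abscission gene CEP55 by 0.76. KIF14, a kinesin of the midbody, fell from 51.2 and 50.5 to 33.1 and 35.5 CPM, and CKAP2 and the spindle pole gene NUMA1 fell by 0.54 and 0.46. Among 21 tested genes that control mitotic entry and its phosphatases, 9 were higher (42.9%) and 4 lower (19.0%), with a median of 0.17. CDC25A, a phosphatase that activates CDKs, rose from 51.3 and 49.0 to 107 and 119 CPM. CDC25B rose by 0.66 and PPP2CA, a gene of the phosphatase PP2A, by 0.63. The CDK1 inhibitor gene WEE1 rose too, by 0.44, as did PKMYT1 and CHEK1 of the same list, by 0.52 and 0.49. WEE1, PKMYT1 and CHEK1 were picked for mention in this list after their values were seen. CCNG2, a cyclin linked to cell cycle arrest, fell from 35.8 and 39.1 to 10.9 and 12.5 CPM, a log2 fold change of -1.68 (SE 0.11, edgeR adjusted p = 3.5e-06). MASTL, the kinase that restrains PP2A in mitosis, and PPP2R1A, a PP2A scaffold gene, fell by 0.31 and 0.27.

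The regulators that read CHR, CCAAT and E2F sites were divided, with 10 of 17 higher (58.8%) and 5 lower (29.4%) and a median of 0.40. E2F4, an E2F of the DREAM complex, rose from 100.2 and 102 to 192 and 179 CPM. E2F7, a repressor of E2F targets, rose from 26.5 and 29.1 to 53.6 and 55.2 CPM. MYBL2, which encodes B-MYB and was named after its values were seen, rose from 215 and 229 to 371 and 332 CPM. The MuvB subunit gene RBBP4 fell from 243 and 245 to 142 and 152 CPM, and the E2F partner genes TFDP2 and TFDP1 fell by 0.67 and 0.41. Other MuvB subunit genes went the other way, with LIN9, LIN54 and LIN52 called higher by 0.67, 0.47 and 0.40. LIN37, at 0.26, was not called. These LIN genes were named after their values were seen, as were E2F5 and RBL2, which were called lower by 0.62 and 0.42. In the list for DNA replication and G1/S 28 of 42 were higher and 1, the DNA ligase gene LIG1, was lower, with a median of 0.32. Over these 7 lists 97 genes were called higher and 18 lower. With upper-quartile scaling, under which 21.4% of all genes were called higher and 5717 of 16108 lower, the lists had 74 higher and 32 lower.

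**Figure D4:**
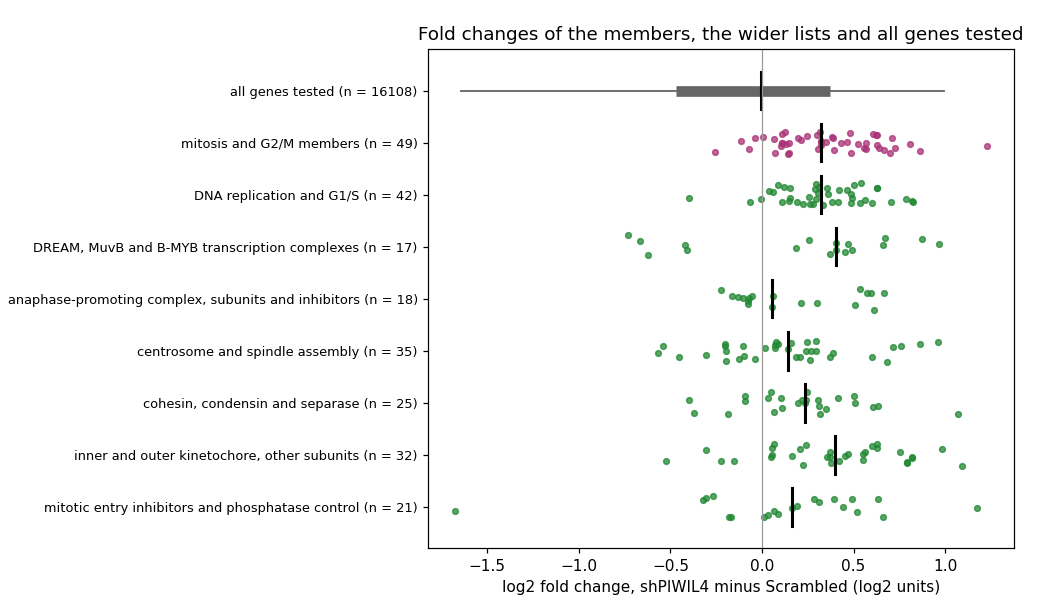
Log2 fold changes (shPIWIL4 minus Scrambled) of the 49 tested members and of 7 lists of related genes, 1 point a gene, with the median as a black bar; the top row gives all 16108 genes tested as the span from the 5th to the 95th percentile (thin line) and from the 25th to the 75th (thick bar). The medians are 0.32 for the members and 0.40 for the other kinetochore genes, against 0.00 for all genes.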

How the data were processed

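The deposited table of each library gives raw read counts per gene beside FPKM and TPM values that the authors computed. The submitters' processing notes name STAR, featureCounts, DESeq2 and the build hg19. The annotation and strand setting were not given in the sources used here, so a gene and an antisense neighbour may share reads. Besides the counts, only TPM was used.

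Count tests used edgeR 4.0.16 under R 4.3.3. The filterByExpr step required 10 counts as minimum and 15 as total, which left 16108 genes. Libraries were scaled with TMM, a robust quasi-likelihood fit gave shPIWIL4 minus Scrambled, and p was adjusted by Benjamini-Hochberg over every gene tested. The SE is the log2 fold change divided by the square root of F. Directions are relative to most genes, and a global shift of RNA content would go unseen. The method was tested on simulated counts.

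Replicates differed beyond sampling noise, with a mean chi-square per gene of 7.89 in Scrambled and 27.9 in shPIWIL4, and each library counts as 1 sample. Alternatives were DESeq2 1.42.0, other scalings and filters, libraries left out and a replicate block. The members and lists were chosen with earlier results of these data known. Named are PIWIL4, the 50 members, and of each list up to 4 called genes with the smallest p and up to 3 called against its majority. A gene that this rule names in the kinetochore list is not reported here. The promoters shown are those of the called members with the largest change in each direction and of the chosen pairs CCNB1 with CCNB2 and CKS1B with CKS2. Promoters are RefSeq's on GRCh38.p14, not the authors' build.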

Additional observations from a re-analysis of the deposited data

How the results depend on the processing

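Under the 12 alternatives, 20 of the 33 called members were called every time. With a library left out, members called higher numbered 20 to 39 and members called lower 0 to 2, with medians of 0.27 to 0.43, and the wider lists had 12 to 28 genes lower. Across the fits with a library left out, the share of all genes called higher rose and fell with the member count. That range of counts is therefore not read as a change in the members alone. With upper-quartile factors 2 members were lower and the median was 0.20, where 5717 of all 16108 genes were called lower. The wider lists then had 32 genes lower, as this scaling moves every fold change down. It put CDK1 at -0.015, AURKB at -0.055, BUB1B at -0.013, MAD2L1 at -0.11, CENPE at -0.051, KIF18A at -0.018 and TOP2A at -0.014, none called. DESeq2 called 0 members lower and 32 higher, the same 32 genes as edgeR. In that fit 20.1% of all genes were called higher and 3627 of 20742 lower. The stricter filter (at least 10 CPM in 2 libraries) gave a median of 0.23 with 26 members higher, and put AURKB at -0.029, MAD2L1 at -0.090 and CENPE at -0.024. Library totals put MAD2L1 at -0.040. With a library left out, the fold change of CDC25C ran from -0.14 to 0.080, of BUB1B from -0.017 to 0.24, of MAD2L1 from -0.11 to 0.17 and of CENPE from -0.030 to 0.18, on the log2 scale. The titles number the libraries as experimental replicates but do not say that a number marks a shared batch or day. Deviations of same-numbered libraries correlated at -0.31 over all genes and -0.78 over the members, so the numbers were not taken as a pairing. With the replicate block 27 members were higher and 0 lower, where 24.3% of all genes were called higher. With the pairing crossed, chosen after seeing the data, 36 members were higher and 1 lower, and 29 genes of the wider lists were lower. In that fit 35.6% of all genes were called higher and 5641 of 16108 lower. Where no other cause is named, the cause was not tested. KIFC1 had too few counts to be tested.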
